A study of Homo sapiens with 171 samples.

Results

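The nuclear genes of oxidative phosphorylation encode most of the subunits of the 5 enzyme complexes of the inner mitochondrial membrane. They were taken by symbol, as every gene beginning with NDUFA, NDUFB, NDUFC, NDUFS or NDUFV, named SDHA to SDHD, or beginning with UQCR, COX4 to COX8 or ATP5, with the assembly factors beginning with NDUFAF left out. A gene with several probe sets was read from the one with the highest mean level over all arrays. This gave 82 genes of the 18417 genes that had a probe set annotated to 1 symbol. Of these, 79 were protein-coding: 34 of complex I, 3 of complex II, 7 of complex III, 17 of complex IV and 18 of complex V. The other 3 were the transcript NDUFV1-DT and the pseudogenes UQCRBP1 and ATP5F1EP2, whose changes of 0.07, 0.05 and -0.12 did not pass the test. Counts and medians below are over the 79 protein-coding members. A further 9 symbols that fit the rule were not analysed here, among them SDHB, UQCRFS1 and ATP5F1E. NDUFA4 and NDUFA4L2 are listed as COXFA4 and COXFA4L2 in the annotation used and so fell outside the rule.

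The study profiled 46 established ovarian cancer cell lines on microarrays, without treatment and after 48 h in cisplatin, a platinum drug that crosslinks DNA, at each line's own GI50 (the concentration that gives 50% growth inhibition). In all, 171 arrays covered 167 cultures, 85 untreated and 82 treated. The labels name 5 batches. Batches 1, 2 and 3 held 18 lines with 3 numbered cultures in each arm (2 treated for HeyA8), and batches 4 and 5 held the other 28 lines with 1 culture in each arm, so treated and untreated cultures were always compared inside the same line and the same batch. The labels do not say that numbered cultures were grown separately, so p-values may reflect technical variation only. The untreated arm is labelled as having no treatment, and no vehicle is named.

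Complex I (NADH dehydrogenase) and complex II (succinate dehydrogenase) pass electrons to ubiquinone, complex III hands them to cytochrome c, and complex IV (cytochrome c oxidase) passes them to oxygen. The protons pumped on the way drive complex V, the ATP synthase. Complexes I, III, IV and V also hold subunits encoded in mitochondrial DNA. None of those subunits had a probe set under its symbol here, so the values describe the nuclear transcripts alone.

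The promoters of 3 members that fell after cisplatin are printed because each holds an exact copy of a motif of a factor known as a regulator of these genes. The motifs searched, on both strands, were a palindromic motif of 10 letters for NRF1, shown by the capitals of the NDUFB4 and ATP5F1C lines, and ACCGGAAG for the ETS factor GABPA, whose reverse complement is in capitals in the ATP5ME line. The motifs share no overlap in these promoters. The sequences run from 250 bases before the RefSeq start to 30 bases from it on, 5′ to 3′ along the gene (GRCh38.p14). NDUFB4 lies on the plus strand at chr3:120596086-120596365, ATP5F1C on the plus strand at chr10:7787927-7788206, and ATP5ME on the minus strand at chr4:674247-674526.
NDUFB4: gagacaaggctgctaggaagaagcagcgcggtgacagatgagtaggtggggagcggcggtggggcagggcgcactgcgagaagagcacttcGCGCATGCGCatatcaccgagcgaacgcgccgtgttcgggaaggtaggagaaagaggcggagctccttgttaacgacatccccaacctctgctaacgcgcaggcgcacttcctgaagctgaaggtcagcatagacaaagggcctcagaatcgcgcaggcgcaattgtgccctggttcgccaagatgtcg
ATP5F1C: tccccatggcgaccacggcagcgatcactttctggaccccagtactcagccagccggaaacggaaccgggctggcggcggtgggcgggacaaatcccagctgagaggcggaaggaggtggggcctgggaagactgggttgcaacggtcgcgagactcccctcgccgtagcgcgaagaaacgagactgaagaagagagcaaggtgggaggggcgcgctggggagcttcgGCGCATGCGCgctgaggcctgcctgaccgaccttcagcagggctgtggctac
ATP5ME: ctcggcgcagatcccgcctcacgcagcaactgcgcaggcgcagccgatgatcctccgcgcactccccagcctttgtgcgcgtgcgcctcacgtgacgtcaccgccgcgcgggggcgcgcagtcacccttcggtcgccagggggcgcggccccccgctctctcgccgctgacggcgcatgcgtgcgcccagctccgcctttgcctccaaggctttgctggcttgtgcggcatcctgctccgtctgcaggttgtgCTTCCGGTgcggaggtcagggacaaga

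The NRF1 letters began at position -159 in NDUFB4 and -22 in ATP5F1C, and the GABPA letters began at position 4 in ATP5ME, counted from the start as 1. Of the 79 members, 67 matched a promoter of 300 bases (250 before the start and 50 from it on), read at the start listed first. The NRF1 letters stood in 5.97% of them, against 1.36% of all 27305 promoters and 1.75% of the 15843 of protein-coding genes. For the GABPA letters the shares were 5.97%, 2.32% and 3.12%. Of the 12 members that fell and had a promoter, 3 held either motif, and 4 of the 55 that were not called did. The match describes these letters only. The factors' own transcripts were below 0 without passing the test: NRF1 changed by -0.10 (adjusted p = 0.0859) and GABPA by -0.10 (adjusted p = 0.152).

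Over all 46 lines, a few subunits of complexes I and V were lower after cisplatin, by small amounts, and none was called higher. Each gene gave 1 difference per line, on a log2 scale, and the 46 differences were tested against 0 with limma, adjusted over all 18417 genes by the Benjamini-Hochberg method at 0.05. By that test 14 of the 79 members fell, 0 rose and 65 were not called; 24 had an unadjusted p under 0.05, with complexes II and III at 0. Among all genes, 4.72% fell and 4.98% rose. The test took the 46 lines as independent. Some were also treated as related: Hey with HeyA8 and HeyC2, A2780 with A2780cisR, DOV13 with DOV13A and DOV13B, and A2008 with C13. With each such group averaged, 40 differences gave 10 members that fell, beside 4.97% of all genes. ATP5MC1, NDUFAB1, NDUFS6 and NDUFV2 were then no longer called. Most members are abundantly measured: 62 of the 79 were among the 4605 genes of highest mean level, of which 8.79% fell and 5.49% rose. The change was below 0 in 59 of the 79 members, with a median of -0.05, beside a median of -0.01 for all genes and -0.02 for those 4605 genes. In bulk cultures, fewer cells of a kind and less RNA per cell cannot be told apart.

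The 14 that fell were divided equally between 2 complexes: 7 of 34 in complex I (20.6%) and 7 of 18 in complex V (38.9%). Complexes II, III and IV had 0 of 3, 0 of 7 and 0 of 17. The median change was -0.03 in complex I, -0.01 in complex II, -0.06 in complex III, -0.04 in complex IV and -0.08 in complex V. The median of complex V's members was below 0 in 34 of 46 lines, against 28 for complex I, 26 for IV, 25 for III and 23 for II. These are descriptions, and the difference between complexes was not tested.

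**Figure D1:**
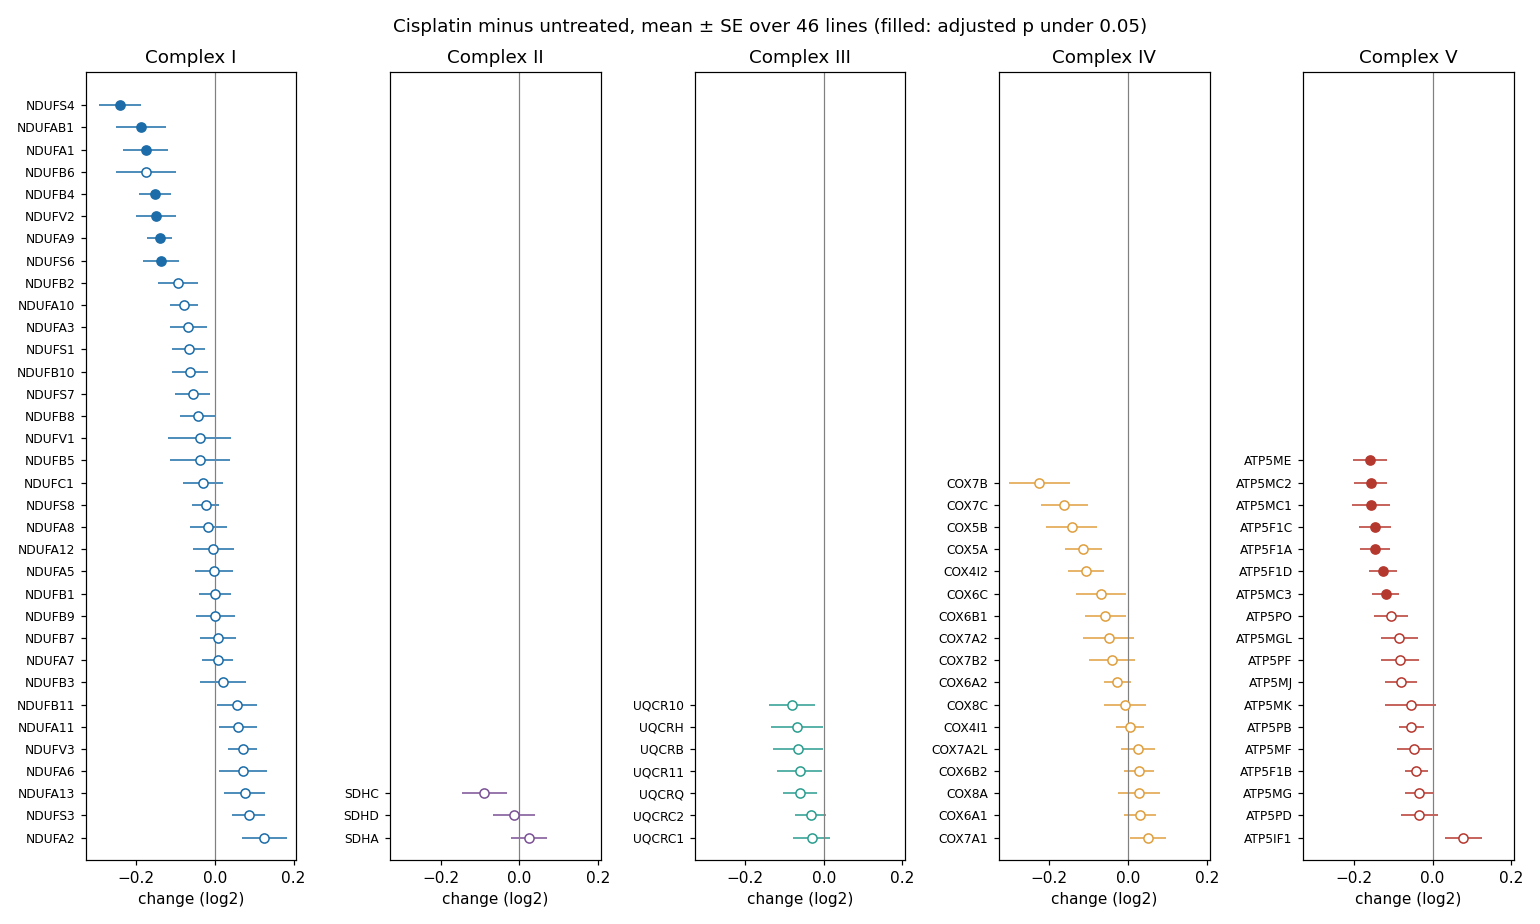
Change of each protein-coding member after cisplatin (log2, mean of 46 line differences ± SE), by complex, with filled points for members past the adjusted threshold. The filled points are 7 members of complex I and 7 of complex V, all below 0, and the changes run from -0.24 (NDUFS4) to 0.13 (NDUFA2).

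In complex I the largest change was that of NDUFS4, an accessory subunit of the NADH-oxidising end of the enzyme whose loss causes Leigh syndrome. Its differences ran from -1.45 in OVCAR-2 through a median of -0.17 to 0.62 in SKOV-8, and 33 of 46 lines were below 0. The mean change was -0.24 ± 0.05 (SE, n = 46 lines; adjusted p = 0.00214), a 1.18-fold lower level. The lines with 1 culture per arm carried most of it: the mean was -0.34 ± 0.08 over those 28 lines and -0.09 ± 0.04 over the 18 replicated lines. In FU-OV-1, a replicated line, the untreated cultures read 7.09, 6.70 and 7.28 and the treated cultures 6.30, 6.72 and 6.52. Treated cultures were lower on average there, but 1 treated culture lay above the lowest untreated one. Arms did not overlap, with the treated cultures lower, in only 1 of the 18 replicated lines, OV90. Such counts, here and below, are for members picked by their p over all lines, and that test used the same cultures. The share of all genes with arms apart was not taken, so the counts are not a separate test. A dimmer probe set of NDUFS4 changed by 0.04 ± 0.04, and the mean of both did not pass the test. NDUFS4 is also the third longest of the members at 122700 bp. Among all genes of 100000 bp or more 12.6% fell, against 3.12% of shorter ones, and the part of length in its change was not tested.

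NDUFA9, an accessory subunit near the ubiquinone site, was lower by a similar amount in every batch. Its mean change was -0.14 ± 0.03 (SE, n = 46; adjusted p = 0.00224; 1.10-fold lower), and 36 lines were below 0. The means within batches 1 to 5 were -0.14, -0.11, -0.12, -0.19 and -0.13. The range was from -0.49 in Hey to 0.32 in SKOV-6. In A2008 the untreated cultures read 10.06, 10.42 and 10.22 and the treated cultures 9.88, 9.85 and 9.91. In IGROV-1 they read 9.91, 9.97 and 9.86 untreated and 9.56, 9.61 and 9.72 treated. In both lines every treated culture lay below every untreated one, and this held in 10 of the 18 replicated lines, with the reverse in 0. The change passed the test within A2008, C13, FU-OV-1, HeyA8, HeyC2 and IGROV-1.

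The other 5 members of complex I that fell were NDUFB4, NDUFA1, NDUFS6, NDUFV2 and NDUFAB1. NDUFB4 and NDUFA1 are accessory subunits of the membrane arm, NDUFS6 and NDUFV2 belong to the NADH-oxidising module, and NDUFAB1 is the mitochondrial acyl carrier protein. NDUFB4 changed by -0.15 ± 0.04 (adjusted p = 0.0112), with a mean of 0.03 in batch 1 and -0.25 in batch 4. Its decrease was large in C13, where untreated cultures read 10.529, 10.449 and 10.460 and treated ones 10.003, 10.029 and 10.093, with no overlap. The treated arm lay wholly below the untreated one in 5 of the 18 replicated lines and wholly above it in 3. The mean was -0.03 ± 0.04 over the 18 replicated lines, with 8 below 0. Over the 28 lines with 1 culture per arm it was -0.23 ± 0.06. NDUFA1 (-0.18), NDUFS6 (-0.14), NDUFV2 (-0.15) and NDUFAB1 (-0.19) had adjusted p-values between 0.0414 and 0.0480, just inside the threshold, and were below 0 in 29 to 33 lines. The 2 probe sets of NDUFV2 gave -0.15 and -0.18, and those of NDUFB4 held the same values.

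The remaining 27 members of complex I were not called. NDUFB6 had the lowest change among them (-0.17 ± 0.08, adjusted p = 0.150). NDUFA2 had the highest of the complex (0.13 ± 0.06, adjusted p = 0.178) and was above 0 in 29 of 46 lines. Between these lay NDUFB2, NDUFA10, NDUFA3, NDUFS1, NDUFB10, NDUFS7, NDUFB8, NDUFV1, NDUFB5, NDUFC1, NDUFS8, NDUFA8, NDUFA12, NDUFA5, NDUFB1, NDUFB9, NDUFB7, NDUFA7, NDUFB3, NDUFB11, NDUFA11, NDUFV3, NDUFA6, NDUFA13 and NDUFS3, from -0.09 to 0.09.

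In complex V the members that fell included 3 subunits of F1, the part that stands out from the membrane. These were ATP5F1A (alpha) of the catalytic head, and ATP5F1C (gamma) and ATP5F1D (delta) of the central stalk. ATP5F1A differences ran from -0.93 in JHOS-2 through a median of -0.10 to 0.34 in OVK-18, with 33 lines below 0. Its mean change was -0.15 ± 0.04 (SE, n = 46; adjusted p = 0.00721; 1.11-fold lower), and every batch mean was below 0, from -0.20 to -0.06. In FU-OV-1 its untreated cultures read 11.20, 11.16 and 11.27 and its treated cultures 10.83, 10.90 and 10.87. The arms did not overlap there or in 6 other replicated lines, and in none was the treated arm wholly higher. ATP5F1C changed by -0.15 ± 0.04 (adjusted p = 0.0145, 31 lines below 0) and ATP5F1D by -0.13 ± 0.04 (adjusted p = 0.0149, 35 lines below 0). The catalytic beta subunit ATP5F1B changed by -0.04 and was not called.

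The membrane part of complex V gave the other 4: ATP5MC1, ATP5MC2 and ATP5MC3, which encode the same mature c subunit of the rotor ring, and ATP5ME, the e subunit. ATP5MC2 changed by -0.16 ± 0.04 (adjusted p = 0.0109), with differences from -1.04 in SKOV-6 to 0.72 in OVK-18 and 33 lines below 0. In C13 its untreated cultures read 9.10, 9.05 and 9.03 and its treated cultures 8.50, 8.55 and 8.49, a gap of 0.55 with no overlap. Over the replicated lines its arms were apart, treated lower, in 4 of 18. ATP5MC1 (-0.16, adjusted p = 0.0310), ATP5MC3 (-0.12, adjusted p = 0.0140) and ATP5ME (-0.16, adjusted p = 0.0127) fell in the same range.

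Of the 11 members of complex V not called, 10 were below 0: ATP5PO, ATP5MGL, ATP5PF, ATP5MJ, ATP5MK, ATP5PB, ATP5MF, ATP5F1B, ATP5MG and ATP5PD, from -0.11 to -0.03. ATP5IF1, the protein that inhibits the enzyme when it would run backwards, was the 1 member above 0 (0.08 ± 0.05, adjusted p = 0.342). Over the 18 replicated lines alone its mean was 0.15 ± 0.04, above 0 in 15 of them, and there it passed the test. Over the other 28 lines it was 0.03 ± 0.07.

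**Figure D2:**
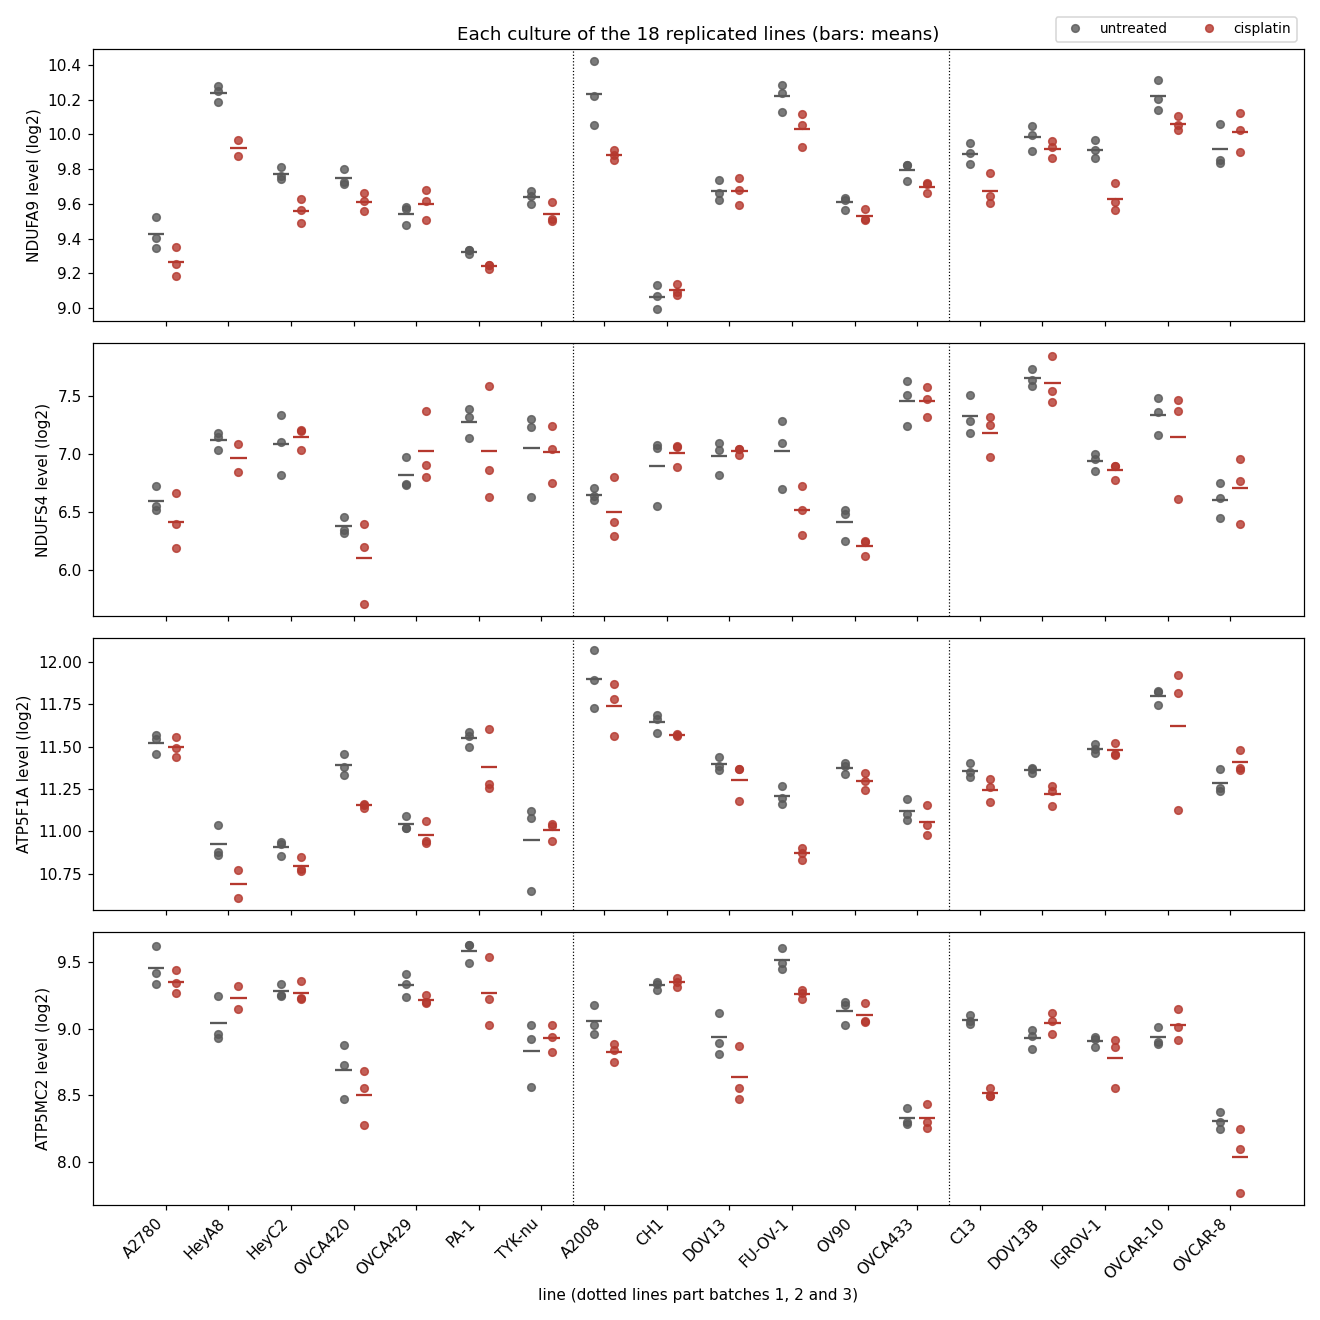
Log2 level of NDUFA9, NDUFS4, ATP5F1A and ATP5MC2 in each culture of the 18 replicated lines, untreated in grey and cisplatin in red, with bars at the means. For NDUFA9 the treated cultures lie below all untreated ones in 10 lines, for ATP5F1A in 7, for ATP5MC2 in 4 and for NDUFS4 in 1. These genes had the smallest p over all lines in a limma test that used the same cultures. No share of all genes was taken for such counts.

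Complex IV had no call in the main fit, although its COX7B, a small accessory subunit, changed by -0.23 ± 0.08 (adjusted p = 0.0555). That lack of calls was not stable. COX7B passed the test in 5 of 29 alternatives, among them the fits without batch 3 and without OV56. Without Hey and OV56, 3 members of complex IV fell: COX4I2, COX5B and COX7C. COX7B differences ran from -1.68 in SKOV-3 to 0.90 in OVK-18, 26 of 46 lines were below 0, and the mean was -0.35 ± 0.12 over the 28 single-culture lines against -0.03 ± 0.08 over the replicated ones. COX7C followed at -0.16 (adjusted p = 0.0735), then COX5B, COX5A and COX4I2 from -0.14 to -0.11, all with an unadjusted p under 0.05. COX6C, COX6B1, COX7A2, COX7B2, COX6A2, COX8C, COX4I1, COX7A2L, COX6B2, COX8A, COX6A1 and COX7A1 lay between -0.07 and 0.05.

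Several complex IV subunits exist as a widely used and a tissue-dependent form. In no pair was either form called in the main fit. The hypoxia-inducible form COX4I2 changed by -0.11 ± 0.05 (adjusted p = 0.148) and its usual partner COX4I1 by 0.00 ± 0.04. The muscle forms COX6A2 (-0.03) and COX7A1 (0.05) stood beside COX6A1 (0.03) and COX7A2 (-0.05), and the testis forms COX6B2 (0.03), COX7B2 (-0.04) and COX8C (-0.01) beside COX6B1 (-0.06), COX7B and COX8A (0.03). In untreated cultures COX4I2, COX6B2, COX7A1, COX7B2 and COX8C were above the median of their arrays in 0 of 18 lines of batches 1 to 3 and in 0 of 30 of batches 4 and 5. The muscle form COX6A2 was above it in 15 of 18 and 30 of 30. The related COXFA4 changed by -0.13 (adjusted p = 0.153) and COXFA4L2 by -0.02 (adjusted p = 0.832). COXFA4L3 rose by 0.30 ± 0.10 (adjusted p = 0.0369), with 31 of 46 lines above 0. Its mean level was low (3.50), its median line difference was 0.08 and its highest was 2.20, in OVCAR-8.

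In complex III all 7 members were below 0 and none was called. UQCR10 had the lowest change (-0.08, adjusted p = 0.444) and the core protein UQCRC1 the highest (-0.03, adjusted p = 0.770). UQCRH, UQCRB, UQCR11, UQCRQ and UQCRC2 lay between them. In complex II, which has no subunit encoded in mitochondrial DNA, the membrane anchors SDHC and SDHD changed by -0.09 (adjusted p = 0.383) and -0.01 (adjusted p = 0.923) and the flavoprotein SDHA by 0.02 (adjusted p = 0.825).

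Lines varied more than the average change. In each line the median was taken over the 79 members; it was below 0 in 30 of 46 lines, with an SD of 0.17 over lines. The lowest was SKOV-6 (-0.48), followed by OVCA432 (-0.39) and M41 (-0.32), and the highest was OV56 (0.57), where only 13 of 79 members were below 0. All 4 are single-culture lines of batch 5, so these values have no replicate check. In Hey, also of batch 5, the median of the 4605 genes of highest level was -1.27, and the members' median was -0.27. Without Hey and OV56 the count that fell was 18 in place of 14, beside 5.19% in place of 4.72% of all genes. Of those 18, 7 were of complex I, 3 of complex IV and 8 of complex V.

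Batch by batch the median change over the 79 members was -0.03, -0.05, -0.03, -0.09 and -0.07 in batches 1 to 5, over 7, 6, 5, 11 and 17 lines. Tested within 1 batch alone, limma called 0 in each of the 5, with 3, 4, 1, 15 and 6 members lower at an unadjusted p under 0.05. Of all genes at most 1.16% fell in such a test. The 18 lines of batches 1 to 3 alone gave 4 that fell: NDUFA9, ATP5F1A, ATP5F1D and ATP5MC1. Of all genes 3.26% fell there. Without batch 4 the count was 4 (NDUFA9, NDUFS4, ATP5ME and ATP5MC3), where 1.69% of all genes fell. Without batch 2 it was 8 (3.46% of all genes). With the batches given equal weight it was 1, NDUFA9, where 1.46% of all genes fell. Without SKOV-3 it was 9, and the share of all genes was not taken there.

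**Figure D3:**
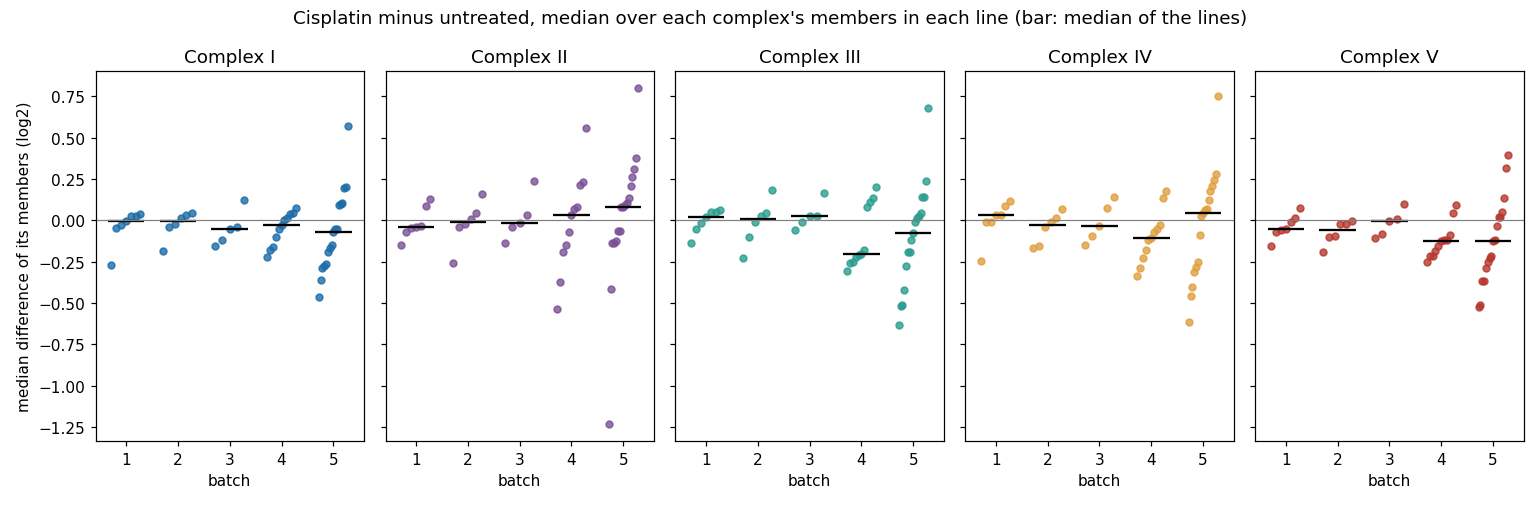
Median difference of the members of each complex (log2) in each of 46 lines, by batch, with bars at the median of the lines. The points of batch 5, with 1 culture per arm, spread widest in every complex, and the highest point of every complex is OV56 in batch 5, up to 0.80 in complex II.

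Complexes I, III, IV and V varied together across lines. Over 46 lines, the medians of complexes I and III correlated at r = 0.84, of III and V at 0.84 and of I and V at 0.83. By ranks (Spearman) these pairs gave 0.78, 0.76 and 0.78. Complex II correlated with I at r = 0.56, with V at 0.48, with III at 0.44 and with IV at 0.20. Its median rests on 3 members, whose own median pairwise r was -0.05. The points share arrays, so these are descriptions. Between single members the median pairwise r was 0.20, and it was 0.19 for pairs within a complex and 0.20 for pairs from different complexes. For all gene pairs the median was 0.01. The members' median correlated at 0.35 with the median of all genes and at -0.02 with that of the 4605 genes of highest level.

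**Figure D4:**
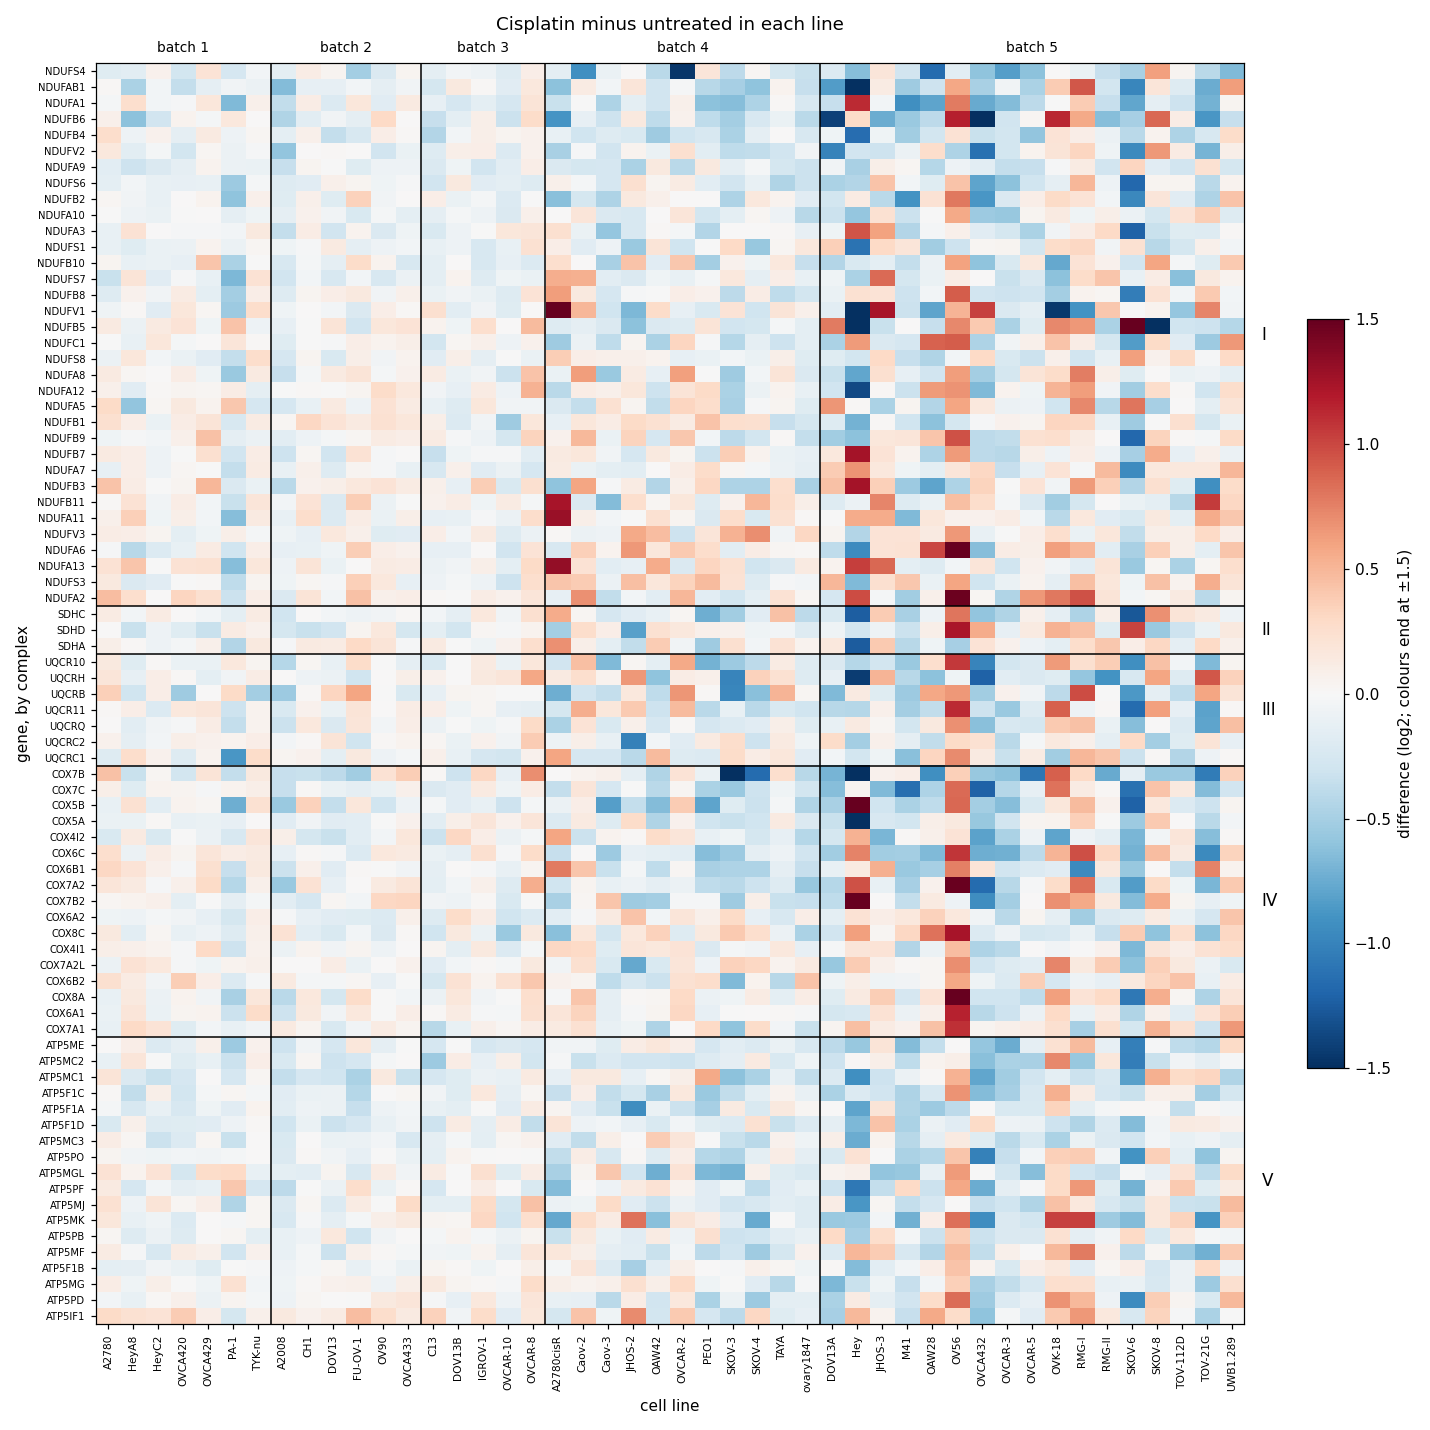
Cisplatin minus untreated (log2) for the 79 members in each of 46 lines, ordered by complex and by batch, with colours ending at ±1.5. SKOV-6 and OVCA432 are mostly blue, OV56 is mostly red in complexes I to IV, and batches 1 to 3 are pale.

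Within the 18 replicated lines, 68 of 1422 pairs of a member and a line fell (4.78%) and 26 rose (1.83%). Over all genes the shares were 3.68% and 4.55%. PA-1, a teratocarcinoma line, held the most: 26 members fell and 3 rose, where 10.8% and 12% of all genes did. In A2008 11 fell and 0 rose (3.39% and 1.76% of all genes), and in FU-OV-1 9 fell and 8 rose (10.5% and 17.3%). OVCAR-8 went mostly the other way, with 1 that fell and 10 that rose (4.3% and 9.12%). However, with arrays centred on their median 4 fell and 5 rose there. In that fit 6.58% of all genes fell, and the share that rose was not taken.

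In PA-1 the members that fell were led by UQCRC1, COX5B, NDUFS7, NDUFA1, NDUFA13, NDUFA11 and NDUFB2, between -0.88 and -0.60. The other 19 were NDUFA8, ATP5ME, NDUFS6, NDUFV1, NDUFB8, COX8A, NDUFB10, ATP5MJ, SDHA, COX7A2, NDUFS3, NDUFS8, UQCRQ, NDUFA7, COX6B1, NDUFB11, ATP5MC3, ATP5MC2 and COX4I1, and 14 of the 26 belonged to complex I. NDUFS6 had the smallest adjusted p (1.29e-06): its untreated cultures read 9.94, 10.02 and 10.07 and its treated cultures 9.75, 9.35 and 9.30. For UQCRC1 the untreated cultures read 9.91, 9.91 and 9.78 and the treated cultures 9.70, 8.74 and 8.53. Treated culture 1 stood close to the untreated cultures for both genes, while cultures 2 and 3 were far below. Over the 79 members, the median difference from the untreated mean was -0.03 in treated culture 1, -0.25 in culture 2 and -0.26 in culture 3. Without the cultures numbered 2, PA-1 had 1 member that fell (0.548% of all genes). Without those numbered 3 it had 2 (2.37%), and without those numbered 1 it had 36 (13.3%). ATP5PF, NDUFA5 and NDUFB5 rose in PA-1, by 0.40 to 0.43.

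In A2008 the 11 that fell were NDUFAB1, NDUFV2, NDUFA3 and NDUFA9 of complex I, SDHC of complex II, UQCR10 of complex III, COX5B, COX7A2 and COX8A of complex IV, and ATP5PF and ATP5MC1 of complex V. NDUFV2, which carries an iron-sulphur cluster, read 9.06, 9.41 and 9.12 untreated and 8.62, 8.51 and 8.69 treated, with no overlap. All 3 treated cultures of A2008 shared the direction, with members' medians of -0.29, -0.15 and -0.11. Even so, without the cultures numbered 2 the count in A2008 was 0. All genes lost calls too, with 0.576% that fell there in place of 3.39%.

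In OVCAR-8 the members that rose were NDUFS1, NDUFB9, NDUFA8, NDUFB5 and NDUFA12 of complex I, UQCRC2 and UQCRH of complex III, COX7A2 of complex IV, and ATP5MG and ATP5MJ of complex V. NDUFB5 read 10.83, 10.90 and 10.93 untreated and 11.26, 11.57 and 11.26 treated, and COX7A2 read 8.46, 8.44 and 8.44 untreated and 8.92, 8.99 and 9.05 treated. Neither gene's arms overlapped. UQCRH rose from an untreated level of 3.56, the lowest among the lines of batch 3. ATP5F1D was the 1 member that fell there, by 0.37. Without the cultures numbered 2 the count that rose in OVCAR-8 was 0, and without those numbered 3 it was 3. It was 1 when the line was fitted alone. In these fits 1.98%, 2.41% and 1.06% of all genes fell in OVCAR-8, in place of 4.3%. The shares of all genes that rose were not taken, so these counts that rose cannot be set beside all genes. In FU-OV-1, 4 members of complex V fell (ATP5MC1, ATP5F1C, ATP5F1A and ATP5PB) together with 4 of complex I (NDUFS4, NDUFB5, NDUFA10 and NDUFA9) and UQCRC2. In the same line 5 other members of complex I rose (NDUFA2, NDUFA6, NDUFB2, NDUFB11 and NDUFS3), as did SDHA, UQCRB and ATP5IF1. Without the cultures numbered 2 the counts in FU-OV-1 were 7 and 1, and without those numbered 3 they were 2 and 4. Of all genes 9.38% and 6.74% fell in those fits, in place of 10.5%. The shares that rose were not taken there either, so the 1 and 4 members that rose cannot be set beside all genes.

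The other replicated lines held few calls. C13 had 7 that fell and 1 that rose (7.34% and 10.3% of all genes), and HeyA8 had 4 and 1 (7.8% and 5.89%). HeyC2 had 3 and 0 (2.3% and 2.83%). Without the cultures numbered 2 the counts that fell in these 3 lines were 1, 1 and 0 (1.91%, 4.58% and 0.429% of all genes). Without those numbered 3 they were 2 in C13 and 0 in HeyC2 (5.12% and 0.928%). HeyA8 then lacked replicate treated cultures, so no count is given for it. In DOV13, IGROV-1 and OVCAR-10 the counts were 2 and 0 each, where 0.668%, 5.27% and 1.25% of all genes fell and 2.64%, 1.69% and 2.93% rose. The pair called in DOV13 was NDUFB4 and NDUFA3, that in IGROV-1 NDUFA9 and NDUFS1, and that in OVCAR-10 COX8C and NDUFB1. Treated culture 1 of OVCAR-10, the array least like the others of its line (highest r 0.972), had a members' median of -0.42, against 0.12 in culture 3. Without it and treated culture 3 of OVCA420 (highest r 0.985), OVCAR-10 had 0 calls and 11 members fell over all 46 lines. Of all genes 0.0597% then fell in OVCAR-10 and 4.78% over all lines. OVCA429 had 1 and 1 (1.66% and 2.25%), where ATP5F1B fell and NDUFB9 rose. A2780 (1.82% and 1.72%) and OVCA420 (4.53% and 6.96%) had 0 and 1, NDUFA2 and ATP5IF1 respectively. The limma fit called 0 members in CH1 (0.527% and 1.45% of all genes), DOV13B (0.424% and 1.03%), OV90 (1.8% and 1.12%), OVCA433 (1.83% and 0.852%) and TYK-nu (0.0217% and 0.0543%). At an unadjusted p under 0.05, from 1 to 3 members were lower and from 1 to 3 higher in each of these 5 lines.

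**Figure D5:**
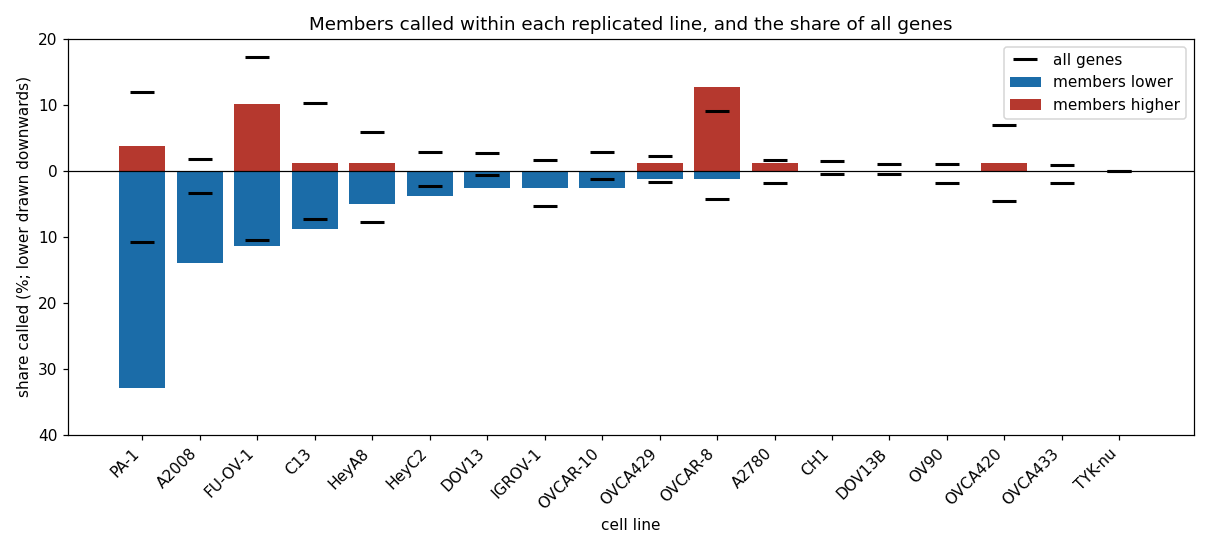
Share of the 79 members called lower (blue, downwards) or higher (red) within each of the 18 replicated lines, with black marks at the share of all genes. In PA-1 26 members were lower against 10.8% of all genes, in A2008 11 against 3.39%, and in OVCAR-8 10 were higher against 9.12%.

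Whether a member's response differed between the 18 lines was tested with limma's F test. It passed for 44 of the 79 members (55.7%), close to the 51% of all genes. By complex the counts were 23 of 34 in complex I, 3 of 3 in II, 5 of 7 in III, 4 of 17 in IV and 9 of 18 in V. Without the cultures numbered 2 the count was 1 member and 20.1% of all genes, and without those numbered 3 it was 12 and 31%.

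UQCRC1 had the widest range among members past that test, 1.16, from -0.88 in PA-1 to 0.28 in TYK-nu. In TYK-nu its untreated cultures read 7.89, 9.02 and 9.23 and its treated cultures 9.22, 8.56 and 9.20, which overlap. UQCRB, another complex III subunit, ranged over 1.14, from -0.55 in A2008 to 0.59 in FU-OV-1. Its cultures in FU-OV-1 read 4.97, 5.11 and 5.02 untreated and 5.37, 5.89 and 5.60 treated, and in A2008 5.70, 5.78 and 5.71 untreated and 5.16, 4.99 and 5.40 treated. So the treated arm lay wholly above the untreated one in FU-OV-1 and wholly below it in A2008. The rise in FU-OV-1 was called, and the decrease in A2008 was not. UQCRB was also dim in untreated cultures. It was above the array median in 0 of 18 lines (batches 1 to 3) and 3 of 30 (batches 4 and 5).

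COX7A2 ranged over 1.09, from -0.55 in A2008 to 0.54 in OVCAR-8, and COX5B over 1.08, from -0.73 in PA-1 to 0.35 in CH1. NDUFA13, also known as GRIM-19, ranged over 1.06, from -0.64 in PA-1 to 0.41 in HeyA8. NDUFA5 ranged over 0.997, from -0.59 in HeyA8 to 0.41 in PA-1, the reverse order of the same 2 lines. The cultures of NDUFA5 in HeyA8 read 8.87, 8.80 and 8.72 untreated and 8.35 and 8.07 treated, with no overlap.

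Untreated levels of the members differed between lines of the same batch in 79 of 79 cases, where 88.6% of all genes did (limma F test, 36 residual degrees of freedom). UQCRH, the hinge protein of complex III, had the widest range: in batch 3 it stood at 3.56 in OVCAR-8, with the next line at 6.89 and the highest, IGROV-1, at 7.25. COX7B2 stood at 5.52 in OVCA420, with the next line of batch 1 at 3.00. COX7B ranged from 7.42 in OVCA433 to 9.96 in A2008, and NDUFB6 from 6.16 in OV90 to 8.43 in A2008, both in batch 2.

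Genes around the complexes gave a mixed picture. For comparison, 4.72% of all genes fell and 4.98% rose. Of the 4605 genes of highest level, 8.79% fell and 5.49% rose. Of 43 assembly factors, 4 fell (9.3%) and 0 rose, with a median of -0.01. NUBPL, which places iron-sulphur clusters in complex I, changed by -0.49 ± 0.09 (adjusted p = 2.66e-04), and ATPAF1, an assembly factor of the head of complex V, by -0.19 ± 0.04 (adjusted p = 0.00122). Of 73 mitochondrial ribosomal proteins 12 fell (16.4%) and 3 rose (4.11%), with a median of -0.05. The largest changes were those of MRPL1 (-0.43) and MRPL48 (-0.30, 43 of 46 lines below 0). Of 13 regulators of mitochondrial gene expression none passed in either direction with limma, 5 had an unadjusted p under 0.05, and PPARGC1A had the largest change (-0.24, adjusted p = 0.0962). Of cytochrome c and CYC1 neither passed, and CYC1 changed by -0.07.

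The pathways that feed the chain were also lower in part. Of 15 citric acid cycle and pyruvate dehydrogenase genes 5 fell (33.3%, against 4.72% of all genes) and 0 rose, with a median of -0.09. SUCLG2, a subunit of succinyl-CoA ligase, changed by -0.45 ± 0.08 (adjusted p = 2.09e-04) and PDHB, of pyruvate dehydrogenase, by -0.23 ± 0.05 (adjusted p = 0.00109). Of 17 glycolysis genes 3 fell (17.6%) and 0 rose, with a median of -0.10. Those that fell included PKM (-0.23) and LDHA (-0.21). Of 8 genes that maintain mitochondrial DNA 2 rose (25%, against 4.98% of all genes) and 1 fell (12.5%). The exonuclease MGME1 changed by 0.37 and RRM2B, a p53-induced subunit of ribonucleotide reductase, by 0.31.

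The cells' labelled type was checked on untreated levels. Of 8 epithelial and ovarian carcinoma markers, the keratins KRT8 and KRT18 were above the array median in 18 of 18 lines of batches 1 to 3, and in 28 and 26 of the 30 lines of batches 4 and 5. PAX8, EPCAM, KRT7 and KRT19 were above it in 10 to 11 of 18 lines and 23 to 27 of 30, WT1 in 4 and 11, and MUC16 in 0 and 10. Of 7 leukocyte markers, CD68 was above it in 16 of 18 and 23 of 30 lines, and the other 6 in at most 1 of 18 and in 0 of 30. Of 8 fibroblast and mesothelial markers, COL1A1 was above it in 17 of 18 and 30 of 30 lines, and the other 7 in at most 7 and 8. After cisplatin 2 of the 7 leukocyte markers rose, LYZ (0.35) and CD68 (0.26), but 5 of the 7 were below 0, with a median of -0.006. Of the 8 epithelial and ovarian carcinoma markers 1 fell, the keratin KRT19 (-0.23), 5 were below 0 and 0 rose. Among all genes 4.98% rose and 4.72% fell. None was called of the fibroblast and mesothelial markers or of 5 endothelial and 5 muscle markers. Their part in the changes above was not tested.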

How the data were processed

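RNA of 167 cultures was measured on Affymetrix arrays, and the deposited values are log2 levels per probe set, made by the authors with RMA (version not given in the sources used here), per the submitters' processing notes. Repeat arrays of a culture were averaged. Of 33297 probe sets, 19460 carried 1 symbol (platform annotation, updated through RefSeq). Differences were taken within line and batch. Of the 167 cultures, 165 had a partner; untreated PA-1 and SKOV-3 cultures of batch 5 did not. The 46 line differences were tested against 0 with limma 3.58.1 (R 4.3.3), adjusted over all genes by Benjamini-Hochberg, threshold 0.05. OVCA433, measured in batches 2 and 4, gave 1 combined difference, counted under batch 2. The 18 replicated lines were fitted together, 1 mean per line and arm (71 residual degrees of freedom), with calls adjusted within each line, and F tests between lines. In that fit each line's spread is pooled with the other lines'. The upper quartile of arrays was 7.82 to 8.08 in batches 1 to 3 and 5.80 to 6.59 in batches 4 and 5, so no level was set across them. The number of cultures limits the precision. Scripts were tested on simulated data.

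Named genes were all members called, the lowest and highest of each complex, tissue-dependent subunits and partners, the 6 widest ranges past the F test, the 4 widest untreated ranges, and the largest changes of each context list. Members and lists were chosen with earlier results of these data known. Alternatives covered replicate block, left-out cultures, batches and lines, related lines averaged, weighting, scaling, dim genes and probe-set choice. Probe sets of several symbols were left out. For mitochondrially encoded subunits no values were used. Figures were drawn with matplotlib.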

Additional observations from a re-analysis of the deposited data

Results flagged for a closer look

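In 4 cases a line stood far from the other lines of its batch. In batch 1 this was PA-1, whose median change was -0.27 over complex I, -0.24 over complex IV and -0.21 over all 79 members. In batch 2 it was A2008, whose median over complex I was -0.18. Such gaps were looked for in 18 groups of lines, and chance marks about 1 in 20. The groups are overlapping summaries of the same lines, so the 4 cases are not separate from each other.

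The change after cisplatin differed between the 18 replicated lines for 44 members by limma's F test. The widest ranges among them were those of UQCRC1 (1.16), UQCRB (1.14), COX7A2 (1.09), COX5B (1.08), NDUFA13 (1.06) and NDUFA5 (0.997), on the log2 scale.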

How the results depend on the processing

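The 14 members that fell over all lines became 8 without batch 2 and 4 without batch 4. They became 4 in batches 1 to 3 alone (with 1 higher, ATP5IF1) and 1 with batches weighted equally. In each batch alone, or when the change had to exceed 1.2-fold, the count was 0. At most 1.16% of all genes fell in a batch alone, and 0.0217% with the 1.2-fold minimum. Of all genes 4.72% fell in the main fit, 3.46% without batch 2 and 1.69% without batch 4. In batches 1 to 3 alone 3.26% fell and 4.17% rose, and with equal weights 1.46% fell. Batch 4 alone held 12 lines, with OVCA433. NDUFB4 changed by 0.030 in batch 1 alone. Leaving out cultures numbered 1, 2 or 3 gave 11 to 14, where 4.46% to 4.59% of all genes fell. Leaving out 1 line at a time, chosen after seeing the data as were the fits without Hey and OV56, gave 9 (SKOV-3) to 16 (OVK-18). Shares of all genes were not taken with 1 line left out at a time. The other alternatives gave 10 to 18, with 10 when related lines were averaged, and 3.83% to 8.06% of all genes fell in them. The median of each complex moved by less than 1 SD over lines in 28 of 28 alternatives. That SD (0.17 to 0.30) is larger than the size of every median, so the count could not show whether a median held. The medians ranged from -0.05 to -0.02 in complex I, -0.12 to 0.03 in II and -0.08 to -0.004 in III. They ranged from -0.10 to -0.001 in IV and -0.14 to -0.02 in V. The 44 members that differed between replicated lines became 29 with the replicate block, and 1 to 40 with a numbered culture left out. The 68 lower and 26 higher calls within lines became 19 and 11 with each line fitted alone and 2 and 0 with a 1.2-fold minimum. With a numbered culture left out they ranged from 11 to 68 and from 1 to 29. The other alternatives kept both within 1.5 times. For these calls, shares of all genes pooled over lines were not taken in the alternatives. Untreated differences held for 71 to 79 members, where 71 comes from the alternative without dim genes (72 tested), and the median pairwise r was 0.17 to 0.21. Culture numbers did not pair the arms: r of the deviations was -0.50 to 0.42 over 53 same-numbered pairs (median -0.03), 7 were over 0.1, and 16 of 53 treated cultures were closest to their own number. With the replicate block 14 members fell over all lines. The causes of these shifts were not tested. Changes near 0.1 lie close to what 46 lines can call.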
